A study of Mus musculus with 8 samples.

Results

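The values described here are those of 31 mouse genes of cholesterol and fatty acid synthesis that SREBP transcription factors are known to activate, chosen by symbol from the 25124 genes of an RNA-seq table. Of the 31 genes, 18 encode enzymes of cholesterol synthesis, 9 encode enzymes that make or modify fatty acids, and 4 encode the SREBP proteins themselves or other proteins of sterol regulation and transport (Insig1, Srebf1, Srebf2 and Stard4). All 31 were present in the table and all 31 passed the filter on low values that left 11700 genes for testing. The cells were osteoclast precursor (OCP) cells, macrophages grown from mouse bone marrow, which fuse into bone-resorbing osteoclasts when they receive RANKL, the cytokine that bone-forming cells present to them. Peroxiredoxin 1 (PRDX1) is an antioxidant enzyme that was added here from outside, as a recombinant His-tagged protein expressed in Escherichia coli and passed over an endotoxin removal resin.

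Every culture received 30 ng/ml M-CSF, the growth factor of macrophages, and RNA was taken after 48 h. There were 4 groups of 2 libraries: M-CSF alone (MCSF), M-CSF with 200 nM PRDX1 (PRDX1), M-CSF with 100 ng/ml RANKL (RANKL), and M-CSF with both at the same doses (RANKL+PRDX1). The sample labels name C57BL/6 mice of 6 to 8 weeks as the source of the marrow, whereas the culture methods of the study name male ICR mice. Neither source says whether the 2 libraries of a group came from separate animals, so that p-values measure the spread between these libraries, which may be technical.

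SREBPs are membrane-bound proteins of the endoplasmic reticulum. When sterols are scarce, SCAP carries them to the Golgi, where they are cut and a fragment enters the nucleus and binds sterol elements in promoters. When sterols are plentiful, INSIG proteins hold SCAP and SREBP back. SREBP2, from Srebf2, mainly activates the genes of cholesterol synthesis and SREBP1, from Srebf1, mainly those of fatty acid synthesis, and in macrophages both programs respond to the lipids the cell takes up and to inflammatory signals.

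Depth was 27285023 to 46171727 reads per library, and a member had between 62 reads (Scd1) and 13662 reads in a library. Replicates differed by more than the counting noise of their reads (chi-square per degree of freedom 4.59 to 9.19), so no library was counted as a copy of another. The labelled cell type was checked on marker genes. All 7 macrophage markers were expressed in every library, with a summed level of 9710.1 to 10132 FPKM in RANKL and 13101 to 17017 FPKM in the other groups. Lyz2 made up most of that sum, with a mean of 14117 FPKM in MCSF. In RANKL the single markers kept from 7.53% (Fcgr1) to 84.4% (Cd68) of their MCSF means. The 6 osteoclast markers summed to 25.3 to 26.3 FPKM in MCSF, 58.5 to 59.3 in PRDX1, 1593 to 1704 in RANKL and 202 to 212 in RANKL+PRDX1. Adipocyte markers, of interest because fat cells express many of the genes described, were at or near 0 (5 genes, at most 0.039 FPKM in sum), and 4 of them (Plin1, Lep, Cidec and Retn) were listed at 0 in every library. FPKM divides the reads of a gene by its transcript length and by the size of the library, so levels may be compared between genes.

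The MCSF group had the highest mean level of all 31 genes. Both MCSF libraries lay above the other 6 libraries for 30 of the 31, the exception being Acaca, against 13.3% of all genes tested. The summed level of the 31 genes was 850.3 to 899.7 FPKM in the MCSF libraries, 479 to 485 in PRDX1, 460 to 467 in RANKL and 412 to 416 in RANKL+PRDX1, which did not overlap between groups. As a share of the MCSF mean, the median gene stood at 56.8% in PRDX1 (range 12.04% to 87.5%), 55.2% in RANKL (15.6% to 97.2%) and 49.5% in RANKL+PRDX1 (11.2% to 83.3%). RANKL+PRDX1 was the lowest group for 15 genes, RANKL for 9 and PRDX1 for 7. In bulk RNA, fewer cells that express a gene and less of its RNA per cell cannot be told apart.

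**Figure D1:**
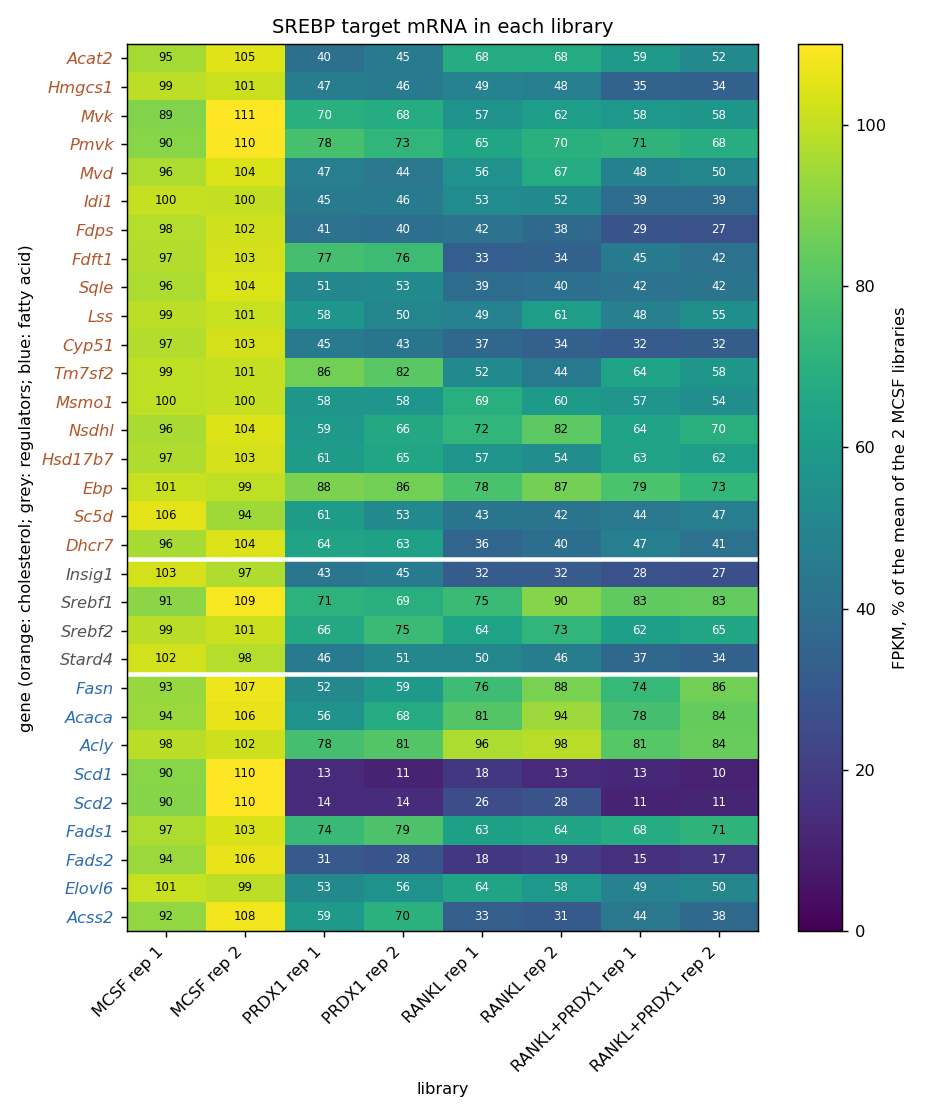
Level of each of the 31 genes (rows; orange names for cholesterol synthesis, grey for regulators, blue for fatty acid synthesis) in each of the 8 libraries (columns), as a percent of the mean FPKM of the 2 MCSF libraries, printed in each cell. The 2 MCSF columns are the brightest, and Scd1, Scd2 and Fads2 are the darkest rows in the other 6 columns.

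The promoters of these genes were searched for the letters that SREBPs are known to bind, since all 31 had lower means in PRDX1 and in RANKL than in MCSF. RefSeq promoter windows of GRCm38.p6 (the assembly of mm10), from 250 bases before to 50 bases after a gene's start, were matched to 24 of the 31 genes. The window of Pmvk belongs to a start 453 bases inside the transcript measured here, and is counted below as one without a match. The sterol element TCACNCCAC, searched on both strands, was present in 1 of the 24 windows (4.17%), that of Hmgcs1, against 1.24% of 32851 windows of all genes. With at most 1 letter changed, a search added after the first result was seen, 9 of 24 windows held it (37.5%) against 24.2% of all windows. CCAAT, the box of NF-Y, a factor that works with SREBP, was found on either strand in 12 of 15 cholesterol windows (80.0%) and 3 of 6 fatty acid windows (50%), against 37.4% of all windows and 38.9% of the windows of genes tested here. GGGCGG, the box of Sp1, was found in 14 of 15 and 3 of 6 windows, against 35.7% of all windows and 64.6% of those of genes tested. A match is a run of letters and not a shown binding site.

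The 250 bases before the start are printed 5′ to 3′ on the gene's strand for the 5 genes with the largest decrease by PRDX1 among those with a sterol element at up to 1 changed letter, and for 2 fatty acid genes beside them, Fasn and Fads2, which were chosen after their values were seen. Capitals mark sterol element matches at up to 1 changed letter and CCAAT or its reverse, ATTGG.
Insig1 (chr5:28071162-28071411, plus strand): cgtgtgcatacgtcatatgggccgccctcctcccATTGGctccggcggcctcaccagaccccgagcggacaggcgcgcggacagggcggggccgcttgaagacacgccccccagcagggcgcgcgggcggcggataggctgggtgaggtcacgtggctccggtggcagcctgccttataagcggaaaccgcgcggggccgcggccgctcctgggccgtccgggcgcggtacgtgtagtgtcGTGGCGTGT
Cyp51 (chr5:4104698-4104947, minus strand): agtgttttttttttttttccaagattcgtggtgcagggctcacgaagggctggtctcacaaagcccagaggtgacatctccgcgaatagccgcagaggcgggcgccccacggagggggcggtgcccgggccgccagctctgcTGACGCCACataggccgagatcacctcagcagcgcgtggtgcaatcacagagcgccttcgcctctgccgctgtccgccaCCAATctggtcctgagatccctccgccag
Acat2 (chr17:12960726-12960975, minus strand): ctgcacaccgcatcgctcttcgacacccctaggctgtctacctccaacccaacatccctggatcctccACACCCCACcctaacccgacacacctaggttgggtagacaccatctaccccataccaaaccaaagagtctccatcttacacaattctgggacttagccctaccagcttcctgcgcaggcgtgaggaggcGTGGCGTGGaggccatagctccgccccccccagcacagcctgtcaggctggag
Hmgcs1 (chr13:119690101-119690350, plus strand): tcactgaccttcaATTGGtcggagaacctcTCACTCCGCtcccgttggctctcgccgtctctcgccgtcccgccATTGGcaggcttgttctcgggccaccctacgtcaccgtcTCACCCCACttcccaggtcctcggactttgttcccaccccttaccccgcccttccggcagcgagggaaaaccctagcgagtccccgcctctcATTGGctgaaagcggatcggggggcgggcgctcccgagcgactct
Msmo1 (chr8:64733579-64733828, minus strand): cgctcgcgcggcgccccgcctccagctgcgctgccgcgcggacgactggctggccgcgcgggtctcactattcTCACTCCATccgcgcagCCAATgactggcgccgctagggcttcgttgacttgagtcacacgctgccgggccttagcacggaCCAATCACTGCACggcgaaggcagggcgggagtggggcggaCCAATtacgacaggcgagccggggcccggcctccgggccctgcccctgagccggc
Fasn (chr11:120824548-120824797, minus strand): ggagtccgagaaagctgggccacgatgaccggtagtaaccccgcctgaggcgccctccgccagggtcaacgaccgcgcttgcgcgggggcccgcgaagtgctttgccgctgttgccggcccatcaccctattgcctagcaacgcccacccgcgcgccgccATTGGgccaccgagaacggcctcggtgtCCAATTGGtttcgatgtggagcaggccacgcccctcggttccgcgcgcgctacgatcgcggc
Fads2 (chr19:10101504-10101753, minus strand): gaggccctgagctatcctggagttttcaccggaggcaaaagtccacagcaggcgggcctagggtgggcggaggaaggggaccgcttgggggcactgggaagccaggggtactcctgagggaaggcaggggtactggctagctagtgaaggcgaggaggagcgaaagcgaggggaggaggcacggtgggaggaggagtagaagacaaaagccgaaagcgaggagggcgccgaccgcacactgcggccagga
The exact element of Hmgcs1 (TCACCCCAC) begins 137 bases before its start, with a match of 1 changed letter at 220 bases and ATTGG at 237, 176 and 45 bases. The match of Insig1 (GTGGCGTGT, on the opposite strand) begins 9 bases before the start and that of Cyp51 (TGACGCCAC) 108 bases before it. In Msmo1, one of the 2 sterol element matches and a CCAAT share letters, as the long run of capitals shows. Fasn has 3 boxes, 2 of which overlap in CCAATTGG, and no sterol element match. The Fads2 stretch holds neither motif, although Fads2 was among the genes that fell most. The 1 fatty acid gene whose window holds a sterol element match, with 1 changed letter, is Acly (TCAGGCCAC, beginning 158 bases before the start).

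The first comparison asked what PRDX1 does to these genes in precursor cells without RANKL. PRDX1 lowered 19 of the 31 genes by at least 1.5-fold at a limma adjusted p under 0.05 and raised 0, on the scale of log2(FPKM + 1) on which all fold changes here are given. Over all genes tested, 5.79% passed both thresholds, 1.99% as lower and 3.80% as higher. The 19 were 12 of 18 cholesterol genes, 5 of 9 fatty acid genes and 2 of 4 regulators. Another 10 passed the p threshold and not the fold, all with lower means, and Tm7sf2 and Ebp passed neither. Both PRDX1 libraries lay below both MCSF libraries for all 31 genes, against 39.7% of all genes tested. The median log2 change was -0.74 for cholesterol genes and -0.69 for fatty acid genes, beside -0.04 for all genes tested.

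In the first steps of cholesterol synthesis, which build isoprene units from acetyl-CoA, 4 of 6 genes fell, each by a little over 2-fold. Hmgcs1 makes HMG-CoA from acetyl-CoA, and had 52.6 and 53.8 FPKM in MCSF, 24.8 and 24.3 in PRDX1, 25.9 and 25.3 in RANKL and 18.5 and 18.1 in RANKL+PRDX1. The PRDX1 values were less than those of MCSF and close to those of RANKL, and the change by PRDX1 was -1.08 ± 0.05 SE, limma adjusted p = 4.26e-07. Acat2, which joins 2 acetyl-CoA at the head of the pathway, had 16.6 and 18.3 FPKM in MCSF, 7.04 and 7.86 in PRDX1, 11.9 and 11.8 in RANKL and 10.3 and 9.07 in RANKL+PRDX1. PRDX1 was its lowest group, with a change of -1.12 ± 0.08 SE, limma adjusted p = 8.27e-06. The decarboxylase Mvd changed by -1.03 ± 0.09 SE, limma adjusted p = 2.51e-05, and the isomerase Idi1, which forms the reactive isoprene unit, by -1.04 ± 0.06 SE, limma adjusted p = 2.29e-06. The kinases Mvk and Pmvk, which lie between Hmgcs1 and Mvd in the pathway, had lower means, but their log2 changes of -0.49 (95% CI -0.70 to -0.28) and -0.38 (95% CI -0.58 to -0.19) did not reach the fold threshold.

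At the farnesyl and squalene steps the genes separated. Fdps makes farnesyl diphosphate, the branch point to sterols and to the lipid anchors of small GTPases (NM_134469, chr3:89093588-89101967, minus strand). It was the most abundant of the 31 in MCSF and had 94.6 and 98.7 FPKM in MCSF, 40.0 and 38.9 in PRDX1, 40.4 and 36.9 in RANKL and 27.8 and 26.4 in RANKL+PRDX1. Its change by PRDX1, -1.27 ± 0.06 SE, limma adjusted p = 3.81e-07, was the largest decrease of the cholesterol list. Sqle, the squalene epoxidase, had 46.7 and 50.3 FPKM in MCSF, 24.7 and 25.5 in PRDX1, 18.9 and 19.5 in RANKL and 20.2 and 20.5 in RANKL+PRDX1, with a change by PRDX1 of -0.92 ± 0.06 SE, limma adjusted p = 2.39e-06. PRDX1 libraries were far below those of MCSF and somewhat above those with RANKL. Lss, which closes the sterol ring, changed by -0.72 ± 0.11 SE, limma adjusted p = 0.000732. The gene span of Lss overlaps that of 4930483K19Rik, on the opposite strand, by 11269 bases, introns included, and 4930483K19Rik had a mean of 1.1 FPKM over the libraries.

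Fdft1, the squalene synthase, had a smaller decrease by PRDX1 than its neighbours in the pathway and a larger one by RANKL. It had 37.0 and 39.2 FPKM in MCSF, 29.5 and 28.8 in PRDX1, 12.5 and 13.0 in RANKL and 17.3 and 15.8 in RANKL+PRDX1, so that PRDX1 lay much nearer to MCSF than RANKL did. Its change by PRDX1 without RANKL, -0.37 (95% CI -0.51 to -0.23), did not reach the fold threshold. Fdft1 (NM_001360211, chr14:63145151-63177887, minus strand) overlaps Ctsb, on the opposite strand, by 773 bases. Ctsb encodes the lysosomal protease cathepsin B and had 1591 and 1632 FPKM in MCSF, 2290.5 and 2316 in PRDX1, 462 and 496 in RANKL and 1237 and 1256 in RANKL+PRDX1. Reads were counted without regard to strand, and the part of Ctsb reads in the Fdft1 values was not tested.

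**Figure D2:**
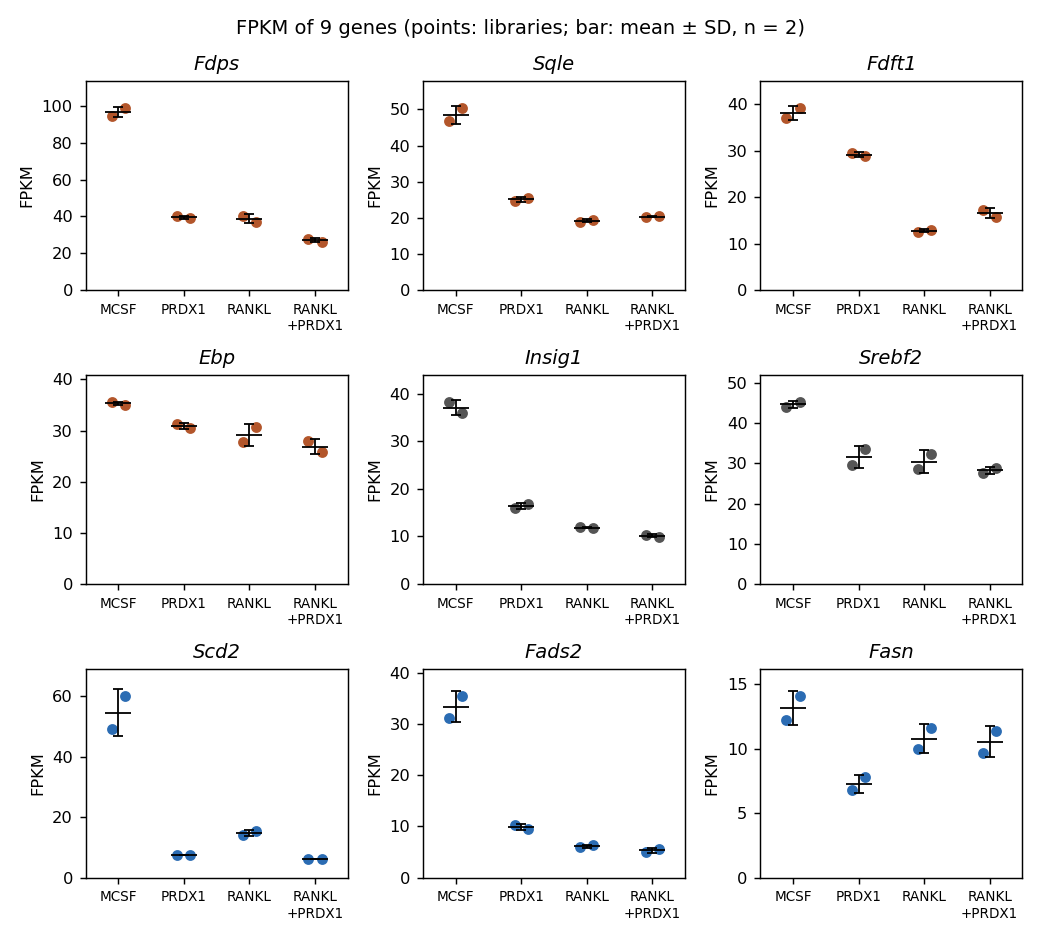
FPKM (vertical axes, from 0) of 9 of the genes in the 4 groups; points are libraries, and the bar and whiskers are the mean ± SD of 2 libraries. Fdps and Insig1 are lowest in RANKL+PRDX1, Fdft1 is lowest in RANKL, and Fasn is lowest in PRDX1, while Ebp differs little between groups.

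Of the 8 genes for the enzymes that trim lanosterol to cholesterol after ring closure, 5 fell. Cyp51, which removes the first methyl group, had 29.3 and 31.01 FPKM in MCSF, 13.6 and 12.9 in PRDX1, 11.2 and 10.1 in RANKL and 9.57 and 9.72 in RANKL+PRDX1 and a change by PRDX1 of -1.13 ± 0.07 SE, limma adjusted p = 2.32e-06. That was the largest decrease of these later steps. Msmo1, the methyl oxidase, had 85.7 and 86.3 FPKM in MCSF, 50.2 and 49.8 in PRDX1, 59.3 and 51.4 in RANKL and 49.3 and 46.3 in RANKL+PRDX1, with the RANKL libraries above those of PRDX1. Msmo1 changed by -0.77 ± 0.07 SE, limma adjusted p = 2.26e-05 and Sc5d, the sterol desaturase, by -0.76 ± 0.08 SE, limma adjusted p = 0.000117. Nsdhl and Dhcr7 passed with changes close to the threshold, -0.62 and -0.60. Without MCSF replicate 2 they had -0.57 and -0.54, short of the fold threshold, and Nsdhl had -0.55 without PRDX1 replicate 1. Dhcr7 also fell short of the fold under quantile normalization (-0.58) and upper quartile scaling (-0.57). Hsd17b7, with -0.56, was just outside it. Tm7sf2 and Ebp, a reductase and an isomerase of the same steps, had -0.22 (95% CI -0.41 to -0.03) and -0.19 (95% CI -0.33 to -0.04), and Ebp kept 87.5% of its MCSF level.

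Of the regulators, Insig1 and Stard4 fell, and the 2 SREBP genes did not reach the fold threshold. Insig1, the sterol sensor that retains SCAP and is itself an SREBP target (NM_153526, chr5:28071412-28078662, plus strand), had 38.2 and 35.9 FPKM in MCSF, 16.0 and 16.8 in PRDX1, 11.9 and 11.7 in RANKL and 10.3 and 9.97 in RANKL+PRDX1. The 3 treated groups lay far below MCSF without overlap, and PRDX1 changed it by -1.13 ± 0.06 SE, limma adjusted p = 9.84e-07. Stard4, a carrier of free cholesterol between membranes, had 18.4 and 17.6 FPKM in MCSF, 8.27 and 9.15 in PRDX1, 9.07 and 8.33 in RANKL and 6.59 and 6.14 in RANKL+PRDX1, with a change of -0.97 ± 0.08 SE, limma adjusted p = 1.26e-05. Srebf2 had 44.1 and 45.2 FPKM in MCSF, 29.7 and 33.5 in PRDX1, 28.5 and 32.4 in RANKL and 27.7 and 28.9 in RANKL+PRDX1. Srebf1, whose mRNAs for SREBP1a and SREBP1c are not separated in a table of 1 transcript a gene, had 15.5 and 18.6 FPKM in MCSF, 12.2 and 11.8 in PRDX1, 12.8 and 15.4 in RANKL and 14.2 and 14.2 in RANKL+PRDX1. Their changes by PRDX1 were -0.49 ± 0.07 SE, limma adjusted p = 0.000945, and -0.47 ± 0.10 SE, limma adjusted p = 0.00527, in that order, or 70.7% and 70.2% of the MCSF mean.

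Among fatty acid genes the desaturases Scd2, Fads2 and Scd1 had the largest decreases of the 31, and larger ones than any cholesterol gene, whereas a further desaturase, Fads1, did not reach the fold threshold. Scd2, a stearoyl-CoA desaturase that puts the first double bond into saturated fatty acids (NM_009128, chr19:44293676-44306862, plus strand), had 49.004 and 60.1 FPKM in MCSF, 7.41 and 7.57 in PRDX1, 14.1 and 15.4 in RANKL and 6.09 and 6.11 in RANKL+PRDX1. PRDX1 left 13.7% of the MCSF mean, a change of -2.70 ± 0.09 SE, limma adjusted p = 5.03e-08, the 3rd largest decrease of the 11700 genes. Scd1, its paralog, was expressed at a low level, with 3.05 and 3.71 FPKM in MCSF, 0.449 and 0.364 in PRDX1, 0.607 and 0.449 in RANKL and 0.426 and 0.346 in RANKL+PRDX1. The change of Scd1 was -1.63 ± 0.12 SE, limma adjusted p = 7.02e-06, and -2.78 with a pseudocount of 0.1 in place of 1, since the added 1 FPKM understates a change at this level. As a share of the MCSF mean, PRDX1 left 12.04% of Scd1, less than of Scd2. Fads2, the delta-6 desaturase of polyunsaturated fatty acids, had 31.2 and 35.4 FPKM in MCSF, 10.3 and 9.46 in PRDX1, 5.90 and 6.30 in RANKL and 5.02 and 5.63 in RANKL+PRDX1 and changed by -1.66 ± 0.08 SE, limma adjusted p = 6.97e-07. For all 3 the libraries of the treated groups lay far below those of MCSF.

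The enzymes that build the fatty acid chain moved less. Fasn, the fatty acid synthase, had 12.2 and 14.1 FPKM in MCSF, 6.81 and 7.79 in PRDX1, 9.99 and 11.6 in RANKL and 9.68 and 11.4 in RANKL+PRDX1. Its PRDX1 libraries were below all others, with a change of -0.77 ± 0.11 SE, limma adjusted p = 0.000494. Elovl6, the elongase of palmitate, changed by -0.69 ± 0.08 SE, limma adjusted p = 0.000204. Acly and Acss2, which supply acetyl-CoA from citrate and from acetate, had -0.33 and -0.56. Acaca, the carboxylase that commits acetyl-CoA to fatty acids, had -0.56, and Fads1, the delta-5 desaturase that neighbours Fads2 on chromosome 19, had -0.37. These 4 passed the p threshold and not the fold, so that Fads1 kept 76.7% of its MCSF level where Fads2 kept 29.7%.

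Other cell type and growth markers moved with PRDX1 in the same libraries. The 5 neutrophil markers summed to 7.38 to 11.5 FPKM in MCSF and 37.9 to 41.5 in PRDX1, with 4 of the 4 tested called higher (S100a8 and S100a9 by 1.85 and 1.96 on the log2 scale), although both genes are also made by macrophages. The 5 stromal markers summed to 11.4 to 15.1 in MCSF and 23.5 to 23.8 in PRDX1, with 3 of 4 tested higher. Of 8 proliferation genes 4 were lower, with a median of -0.58 (Mki67 -0.85), and their summed level was 887 to 900.4 FPKM in MCSF and 728 to 729 in PRDX1. The summed B and T cell markers stayed at or below 1.28 FPKM, with Cd3e listed at 0 in every library. The part of these shifts in the decreases above was not tested.

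The second comparison asked for the effect of PRDX1 in cells that also received RANKL. Here PRDX1 lowered 1 of the 31 genes, Scd2, and raised 0, where 10.2% of all genes tested passed, 4.17% as lower and 6.03% as higher. Scd2 fell from 14.8 ± 0.919 to 6.10 ± 0.0141 FPKM (mean ± SD, n = 2), a change of -1.15 ± 0.09 SE, limma adjusted p = 5.67e-06. For the other 30, 20 had a lower and 10 a higher mean with PRDX1, and the median change of all 31 was -0.12, beside -0.06 for all genes tested. Both RANKL+PRDX1 libraries lay below both RANKL libraries for 15 genes and above them for 8, where the shares of all genes tested were 43.1% and 27.9%. A further 11 genes passed the p threshold without the fold. Of these, 9 were lower, of which Fdps had -0.50 (95% CI -0.63 to -0.37), Hmgcs1 -0.46 and Stard4 -0.40, and Fdft1 and Tm7sf2 were higher, with 0.35 and 0.28. Among the genes with the largest decreases without RANKL, Scd1 had -0.14 (95% CI -0.40 to 0.12) or -0.36 with a pseudocount of 0.1, Fads2 -0.17 (95% CI -0.36 to 0.02) and Cyp51 -0.13 (95% CI -0.29 to 0.02), which do not exclude small changes in either direction.

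The medians in the presence of RANKL were -0.10 for cholesterol genes and -0.14 for fatty acid genes. The former came to -0.0026 without RANKL replicate 2, so that its distance from 0 rested on that library. Neutrophil and stromal markers were again higher with PRDX1, in 3 of 4 genes tested in either list. Of 8 proliferation genes 0 passed both thresholds, while 7 passed the p threshold alone, with a median of -0.35 and 7 of 8 below 0. The osteoclast markers were lower with PRDX1 in 5 of 5 genes tested (median -3.05), and 3 of 7 macrophage markers were higher. The part of these shifts in the values of the 31 genes was not tested.

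**Figure D3:**
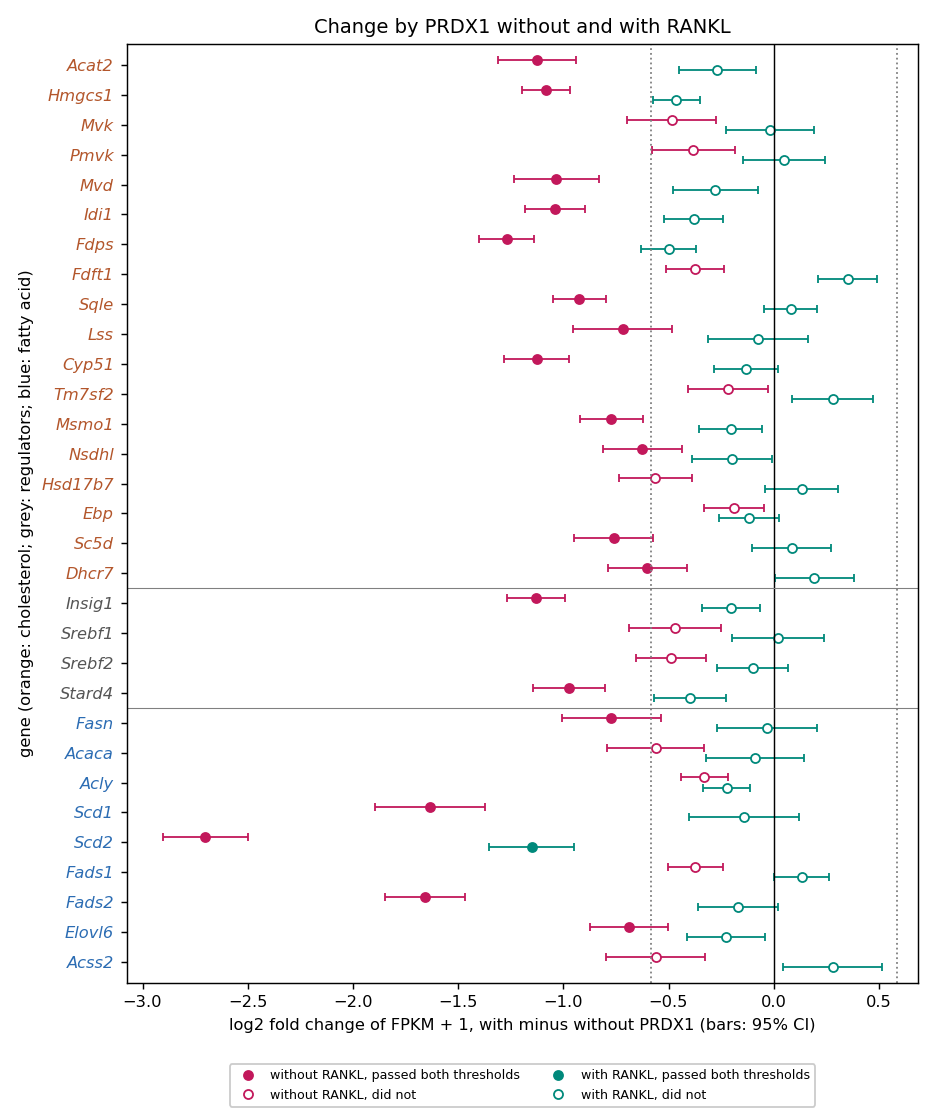
Log2 fold change by PRDX1 (horizontal axis, FPKM + 1, with minus without PRDX1) of each of the 31 genes, without RANKL (magenta) and with RANKL (green); bars are 95% confidence intervals, filled points passed both thresholds, and dotted lines mark a 1.5-fold change. The magenta points all lie left of 0 and 19 are filled, whereas 1 green point, Scd2, is filled.

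The third comparison set RANKL against M-CSF alone, both without PRDX1. It shares its MCSF libraries with the first comparison, so that the 2 sets of changes are not independent. RANKL lowered 21 of the 31 genes and raised 0, where 21.8% of all genes tested passed, 9.96% as lower and 11.8% as higher. The 21 were 14 of 18 cholesterol genes, 5 of 9 fatty acid genes and 2 of 4 regulators. The medians were -0.77 for cholesterol genes and -0.64 for fatty acid genes, beside 0.10 for all genes tested. Both RANKL libraries were below both MCSF libraries for 30 genes, against 30.2% of all genes tested, and the libraries overlapped for Acaca.

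The largest decreases of the cholesterol list by RANKL were at the farnesyl, squalene and late sterol steps. Fdft1 changed by -1.51 ± 0.06 SE, limma adjusted p = 2.03e-08, the largest decrease of the cholesterol list, and Ctsb, which overlaps it, was lower in RANKL too. Cyp51 had -1.42, Fdps -1.30 and Sqle -1.29. Dhcr7, the last enzyme of one route to cholesterol, had 15.3 and 16.7 FPKM in MCSF, 10.3 and 10.1 in PRDX1, 5.75 and 6.36 in RANKL and 7.58 and 6.55 in RANKL+PRDX1. The libraries of Dhcr7 with RANKL were its lowest, at a change of -1.27 ± 0.08 SE, limma adjusted p = 6.31e-07, beside -0.60 by PRDX1. Sc5d had -1.13 by RANKL beside -0.76 by PRDX1, Tm7sf2 -0.89 beside -0.22, and Fdft1 -1.51 beside -0.37. Acat2 had the other order, -0.52 beside -1.12, as did Mvd, -0.65 beside -1.03. The difference between the PRDX1 and RANKL groups was not tested. The further cholesterol genes lowered by RANKL were Hmgcs1 (-1.03), Idi1 (-0.84), Hsd17b7 (-0.70), Lss (-0.70), Mvk (-0.69), Msmo1 (-0.63) and Mvd. Of these Mvk came to -0.54 without MCSF replicate 2, Lss to -0.58 and Mvd to -0.52 without RANKL replicate 1, and Msmo1 to -0.53 without RANKL replicate 2, each short of the fold threshold. The 4 that did not reach the fold, all lower at the p threshold, were Acat2, Pmvk (-0.53), Nsdhl (-0.35) and Ebp (-0.27). Acat2 passed under quantile normalization (-0.60) and in voom on recovered reads (-0.66), and Pmvk in these and under upper quartile scaling (-0.59), where 24 to 25 of the 31 were lowered.

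Insig1 and Stard4 were lowered by RANKL, with changes of -1.57 ± 0.06 SE, limma adjusted p = 1.31e-08, and -0.97, while Srebf2 had -0.54 and Srebf1 -0.26, both past the p threshold only. Fatty acid genes split widely. Fads2 had the largest decrease of the 31 by RANKL (-2.27 ± 0.08 SE, limma adjusted p = 9.79e-09), followed by Scd2 (-1.81), Scd1 (-1.52) and Acss2 (-1.40). This order rests on the added 1 FPKM, since Scd1 kept 15.6% of its MCSF mean in RANKL, Fads2 18.3% and Scd2 27.1%, and with a pseudocount of 0.1 Scd1 had -2.47 and Fads2 -2.43. Acss2 had 9.90 and 11.6 FPKM in MCSF, 6.35 and 7.56 in PRDX1, 3.56 and 3.33 in RANKL and 4.74 and 4.09 in RANKL+PRDX1, and its gene span overlaps that of Acss2os, on the opposite strand, by 9891 bases, introns included. Acss2os had a mean of 1.34 FPKM over the libraries. Fads1 passed at -0.64. The chain-building enzymes did not pass the fold threshold, with Elovl6 at -0.56 (past the p threshold only), Fasn at -0.26 (95% CI -0.50 to -0.03), Acaca at -0.16 (95% CI -0.40 to 0.07) and Acly at -0.04 (95% CI -0.15 to 0.07). Acly had 48.5 and 50.1 FPKM in MCSF, 38.3 and 39.8 in PRDX1, 47.5 and 48.4 in RANKL and 40.2 and 41.7 in RANKL+PRDX1, so RANKL libraries were next to those of MCSF and PRDX1 libraries, with or without RANKL, lay lower.

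With RANKL, the macrophage markers were lower (5 of 7 called) and the osteoclast markers higher (5 of 5 tested). The part of this change in cell state in the values above was not tested. The choice of scaling moved the split of calls over all genes, from 54.3% higher to 45.1% under quantile normalization, 47.0% under upper quartile scaling and 43.8% in voom on recovered reads. All 31 members had negative changes under each of these.

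In the presence of PRDX1, RANKL lowered 3 of the 31, Fdft1 (-0.78), Insig1 (-0.64) and Fads2 (-0.78), and raised 0, where 8.50% of all genes tested passed, 3.98% as lower and 4.52% as higher. The limma adjusted p values were 8.72e-06, 2.78e-05 and 6.72e-05. Both libraries with RANKL lay below both without it for 21 genes and above them for 6, beside 27.0% and 47.3% of all genes tested. The median was -0.21 for cholesterol genes and -0.10 for fatty acid genes, beside 0.07 for all genes. That of the fatty acid genes was -0.065 without PRDX1 replicate 2 and -0.217 in voom on recovered reads. Fasn, Acat2 and Acaca passed the p threshold in the upward direction without reaching the fold, at 0.47, 0.34 and 0.31. These 3 had been lower in PRDX1 than in RANKL. Acss2 also passed as lower in 6 of the 15 alternatives, among them a pseudocount of 0.1 (-0.64), quantile normalization (-0.63) and upper quartile scaling (-0.60). Of all calls, 53.2% were higher, against 44.8% under quantile normalization, 46.2% under upper quartile scaling and 42.6% in voom on recovered reads. In the same comparison 4 of 5 osteoclast markers tested were higher and 3 of 7 macrophage markers lower. All 8 proliferation genes passed the p threshold without the fold, with a median of 0.36 and 1 of 8 below 0. The part of these shifts in the values of the 31 genes under both agents was not tested.

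**Figure D4:**
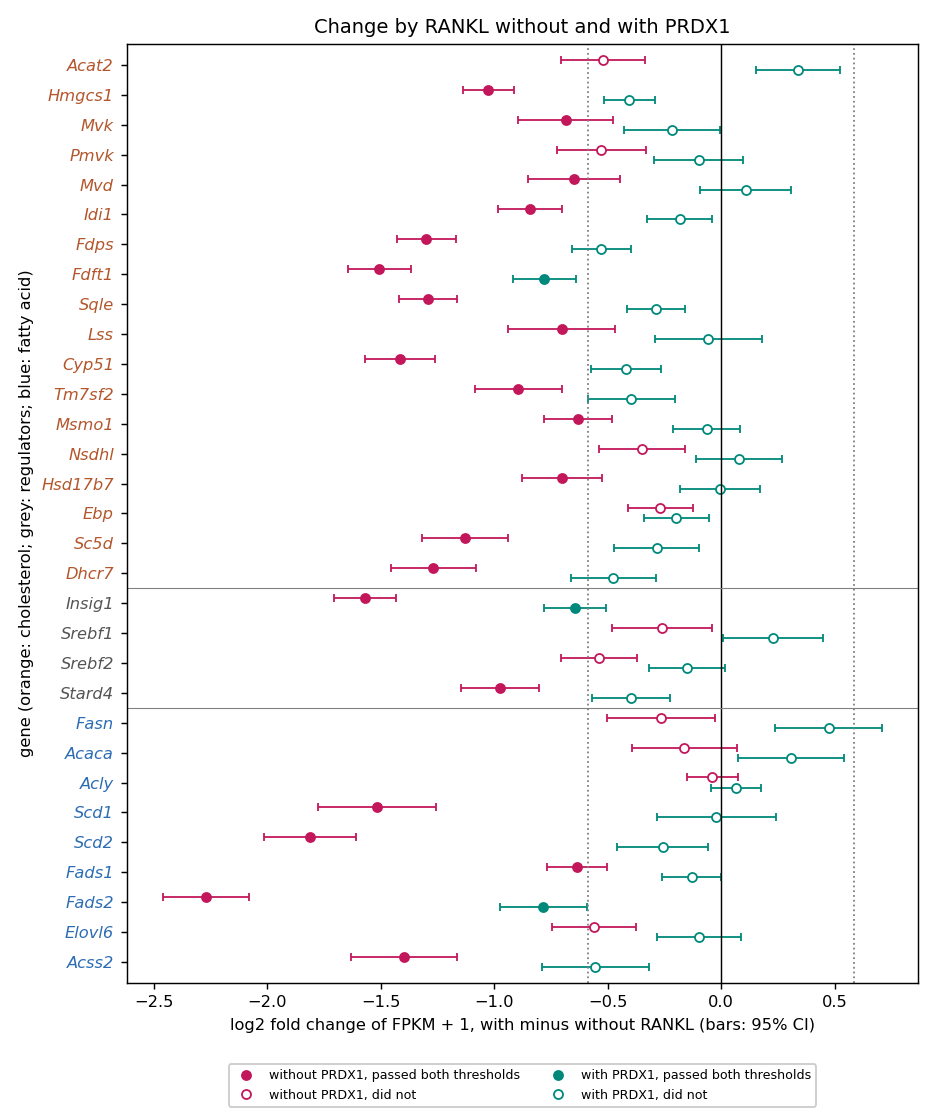
Log2 fold change by RANKL (horizontal axis, FPKM + 1, with minus without RANKL) of each of the 31 genes, without PRDX1 (magenta) and with PRDX1 (green); bars are 95% confidence intervals, filled points passed both thresholds, and dotted lines mark a 1.5-fold change. Without PRDX1, 21 points are filled, and with it 3 (Fdft1, Insig1 and Fads2).

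The interaction tested whether the change by PRDX1 differed with and without RANKL. It is the log2 change by PRDX1 with RANKL minus that without RANKL, so that a value above 0 means a smaller decrease, or an increase, in the presence of RANKL. It was above 0 for all 31 genes (30 without RANKL replicate 1) and passed both thresholds for 18 of them, with 0 below, where 8.85% of all genes tested passed, 4.50% above 0 and 4.35% below. The 18 were 12 cholesterol genes, 5 fatty acid genes and Insig1. The median was 0.68 for cholesterol genes and 0.74 for fatty acid genes, beside -0.01 for all genes tested. The largest values were those of the desaturases Scd2 (1.55 ± 0.13 SE, limma adjusted p = 2.54e-05), Scd1 (1.495 ± 0.17 SE, limma adjusted p = 0.000159) and Fads2 (1.49 ± 0.12 SE, limma adjusted p = 2.27e-05). With a pseudocount of 0.1 Scd1 had the largest, 2.41, beside 1.58 for Scd2 and 1.55 for Fads2. Sqle (1.003), Cyp51 (0.996) and Insig1 (0.93) came next. Ebp (0.07, 95% CI -0.13 to 0.27) and Acly (0.11, 95% CI -0.05 to 0.26) had intervals that included 0, and the other 11 passed the p threshold only. Of these, Stard4 passed both thresholds in 7 of the 15 alternatives, with values of 0.51 to 0.64 over all of them. The cell state markers had interactions too, with 5 of 5 osteoclast markers called below 0 (median -3.91), 2 of 7 macrophage markers above 0 and 2 of 4 neutrophil markers below 0. Their part in the values of the 31 genes was not tested.

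The same can be read from the levels. Had the shares left by PRDX1 alone and by RANKL alone multiplied, Scd2 would have stood at 3.72% of MCSF in RANKL+PRDX1, and it stood at 11.2%. For Insig1 the product was 14.1% and the level 27.4%, for Fdps 16.4% and 28.0%, and for Sqle 20.5% and 42.0%. The level lay above the product for all 31 genes. Sqle, at 39.6% in RANKL and 42.0% in RANKL+PRDX1, had nearly the same level in both, whereas Fdps and Hmgcs1 had still lower means with both agents than with either.

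**Figure D5:**
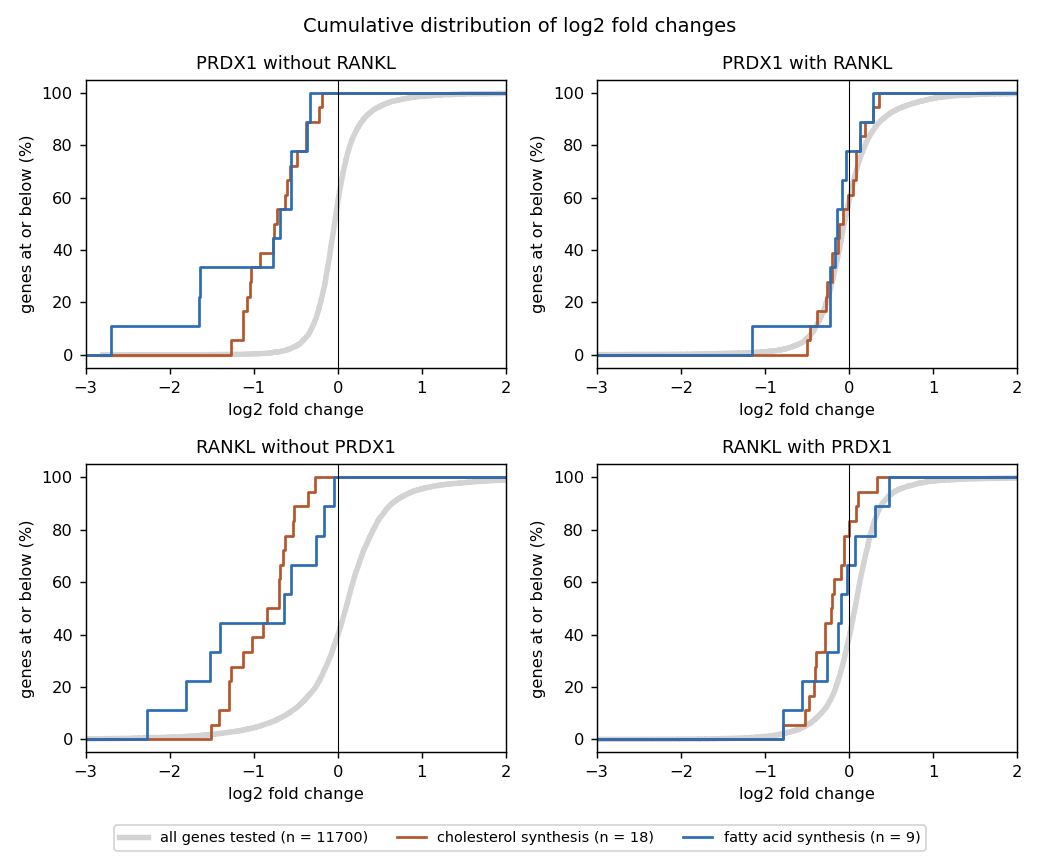
Cumulative share (vertical axis, percent) of the genes at or below each log2 fold change (horizontal axis) for the 18 cholesterol genes (orange), the 9 fatty acid genes (blue) and all 11700 genes tested (grey), with 1 panel per comparison. In the left panels both lists lie to the left of the grey curve, and in the upper right panel they follow it apart from Scd2. Except in the lower right panel, the blue steps reach clearly farther left than the orange ones.

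Cholesterol and fatty acid genes had like medians and, except by RANKL with PRDX1, unlike spreads. By PRDX1 without RANKL the cholesterol genes ranged from -1.27 to -0.19 and the fatty acid genes from -2.70 to -0.33, and by RANKL without PRDX1 the ranges were -1.51 to -0.27 and -2.27 to -0.04. By PRDX1 with RANKL they were -0.50 to 0.35 and -1.15 to 0.28. By RANKL with PRDX1 they were nearly the same, -0.78 to 0.34 and -0.78 to 0.47, with medians of -0.21 and -0.10. The summed FPKM of the cholesterol genes was 56.1% of MCSF in PRDX1, 51.7% in RANKL and 46.3% in RANKL+PRDX1. The shares of the fatty acid genes were 50.7%, 54.5% and 48.1%. No test of a difference between the lists was made.

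Other genes of the pathway were taken from lists that do not hold the members. Of 21 further SREBP targets, 18 were tested. PRDX1 without RANKL lowered 5 and raised 1, with a median of -0.32, beside 1.99% lower and 3.80% higher of all genes tested. With RANKL 0 passed, where 10.2% of all genes tested did, and 5 passed the p threshold alone. Acsl3, which activates fatty acids, had -0.85, while Fabp5, a fatty acid carrier, rose by 1.36 and had 137 and 147 FPKM in MCSF and 385 and 348 in PRDX1. RANKL without PRDX1 lowered 7 of the 18 and raised 1, where 9.96% of all genes tested were lower and 11.8% higher. Also listed were 14 genes for SREBP transport, cleavage, turnover and partners (SCAP, INSIG2, the site proteases, their ubiquitin ligases, NF-Y and Sp1 among them). Of these, 0 passed both thresholds by PRDX1 without RANKL and 0 with it, where 5.79% and 10.2% of all genes tested did. The p threshold alone was passed by 6 without RANKL and 8 with it. Over the 14, the changes ranged from -0.43 to 0.23 without RANKL and from -0.39 to 0.35 with it. Paqr3, which tethers SCAP to the Golgi, was lowered by RANKL (-0.78).

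Genes of cholesterol storage, efflux and liver X receptor (LXR) signaling were more often higher than lower with PRDX1, and more fell than rose with RANKL. Of 17 such genes 16 were tested, and PRDX1 raised 5 of them without RANKL and 10 with RANKL, lowering 0 in either case. Over all genes tested, 3.80% and 6.03% were higher. Without RANKL 5 of the 16 had changes below 0, and with RANKL 1 had. Among those below 0 without RANKL were Abca1, Abcg1 and Mylip, at 93.4%, 73.7% and 91.8% of their MCSF means in PRDX1. Lpcat3, a phospholipid acyltransferase, was lower at the p threshold and short of the fold, at -0.56 without RANKL (limma adjusted p = 6.27e-05) and -0.31 with it. Without RANKL the median was 0.21, and with RANKL 0.64. Ch25h, which makes the oxysterol 25-hydroxycholesterol, had 26.1 and 29.4 FPKM in MCSF, 48.0 and 46.7 in PRDX1, 1.37 and 1.53 in RANKL and 9.81 and 9.98 in RANKL+PRDX1. PRDX1 libraries had more of it than their counterparts, by 0.75 ± 0.07 SE, limma adjusted p = 4.77e-05 without RANKL, and 2.15 ± 0.07 SE, limma adjusted p = 1.75e-08 with it. Apoe, the apolipoprotein that carries cholesterol out of macrophages, had 0.59 and 1.79, and Nr1h3, which encodes LXR alpha, 1.49 and 0.65. RANKL without PRDX1 lowered 9 of the 16 and raised 1, Nr1h3 (2.33), beside 9.96% lower and 11.8% higher of all genes tested. Of 14 genes of fatty acid uptake, storage and oxidation, PRDX1 raised 1 without RANKL, and with RANKL raised 2 and lowered 1. These were Fabp4, a fatty acid carrier (1.19 without and 1.54 with RANKL), Cd36, a scavenger receptor (1.61 with RANKL), and Hadhb, of mitochondrial beta-oxidation (-0.78 with RANKL). Over all genes tested, 3.80% were higher without RANKL, and 6.03% were higher and 4.17% lower with it.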

How the data were processed

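The 31 genes and the gene lists were chosen with earlier results of these data known. Per the labels and the file headers, the authors aligned reads to mm10 with HISAT2 and counted them with HOMER on the exons of RefSeq genes, without regard to strand, 1 transcript per gene. The deposited values are FPKM, that is, reads scaled by transcript length and library size. DESeq2 is also named in the submitters' processing notes, and versions are not given in the sources used here. The study's own thresholds, a fold change of at least 1.5 and an FDR under 0.05, were kept. The table held 8 FPKM columns, each mapped to a sample, with 0 left over.

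FPKM is not a count, so log2(FPKM + 1) was fitted with limma 3.58.1 (R 4.3.3) as 1 model of 4 group means, with the prior variance following intensity and 4 residual degrees of freedom. The 11700 genes whose FPKM averaged 0.5 or more over the libraries entered it. Benjamini-Hochberg adjustment was over all of them in each comparison. The product of FPKM and length rises in equal steps in a library, 1 step a read, and the step gave each library's total. In units of that step the values were whole (within 0.1) for 98.6% to 100% of the 4730 to 5074 genes checked per library, those with short transcripts and few reads, out of 25124 in the table. The depths came to 24542618 to 41712967 reads on genes. Intervals cover the spread between libraries, and the depth limits low genes such as Scd1.

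Named were all 31 genes and, from each other list, up to 3 genes with the largest change by PRDX1 among those that passed. One result that this rule names is not reported here. Overlaps between genes were taken from the table's coordinates. The alternatives were a pseudocount of 0.1, no filter, quantile normalization, upper quartile scaling, limma voom on recovered reads with library sizes scaled by a trimmed mean of M values, no intensity trend, a replicate block and leaving out each library. The steps were run on simulated data with changes larger than the fold threshold. That run does not test calls near the threshold or at levels as low as that of Scd1. Promoter windows came from RefSeq tables of GRCm38.p6, with 7 of the 31 genes unmatched.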

Additional observations from a re-analysis of the deposited data

Results flagged for a closer look

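The change by PRDX1 differed with and without RANKL for 18 of the 31 genes by the interaction term of the limma model, the difference (log2) being the change with RANKL minus that without it. For the cholesterol genes the difference was 0.86 for Acat2, 0.62 for Hmgcs1, 0.76 for Mvd, 0.66 for Idi1, 0.77 for Fdps, 0.73 for Fdft1, 1.003 for Sqle and 0.64 for Lss. In the later sterol steps it was 0.996 for Cyp51, 0.70 for Hsd17b7, 0.84 for Sc5d and 0.79 for Dhcr7. The regulator Insig1 had 0.93. The fatty acid genes Fasn and Acss2 had 0.74 and 0.84, and the desaturases had 1.5 for Scd1, 1.55 for Scd2 and 1.49 for Fads2, or 2.41, 1.58 and 1.55 with a pseudocount of 0.1. All 18 were called in every alternative run except Lss, which came to 0.52 without RANKL replicate 1, 0.57 without PRDX1 replicate 2 and 0.58 without RANKL+PRDX1 replicate 2. With no filter on low values Lss kept 0.64, at a limma adjusted p of 0.0504. The values of Fdft1 may hold reads of Ctsb, whose part in the difference was not tested, nor was that of the osteoclast markers (5 of 5 tested called below 0, median -3.91).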

How the results depend on the processing

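None of the counts, medians and single-gene changes changed sign in a call under the 15 alternatives. Of the 300 recomputed counts and medians, 260 stayed within the limits set for them and 40 moved. The limits were wider for counts. With a pseudocount of 0.1, genes called by PRDX1 without RANKL went from 678 to 964 and counted as unmoved. The cholesterol median of that comparison went from -0.739 to -0.797 and counted as moved. Some medians could not move. No filter, no intensity trend, a replicate block or leaving out a library outside a comparison left its median unchanged. The 260 are therefore not a measure of stability. With a pseudocount of 0.1, the cholesterol median was -0.797 by PRDX1 without RANKL, -0.880 by RANKL without PRDX1 and 0.766 for the interaction, and the fatty acid median was -0.842, -0.687 and 0.806 in the same order and -0.195 by PRDX1 with RANKL. In voom on recovered reads the cholesterol median was -0.0558 by PRDX1 with RANKL, -0.986 by RANKL without PRDX1, -0.308 by RANKL with PRDX1 and 0.788 for the interaction. The fatty acid median in voom was -0.807 by PRDX1 without RANKL, -0.808 by RANKL without PRDX1, -0.217 by RANKL with PRDX1 and 0.829 for the interaction, and RANKL with PRDX1 then lowered 6 of the 31 genes in place of 3. RANKL without PRDX1 lowered 24 of the 31 under upper quartile scaling and 25 under quantile normalization and in voom, with Pmvk, Srebf2 and Elovl6 passing in all 3 and Acat2 in the last 2. The interaction was called for 23 of the 31 in voom, where Tm7sf2, Msmo1, Stard4, Acaca and Elovl6 also passed. Under quantile normalization and upper quartile scaling, the cholesterol median by RANKL was -0.845 and -0.829 without PRDX1 and -0.271 and -0.259 with it. The fatty acid median by RANKL was -0.714 and -0.7002 without PRDX1 and -0.158 and -0.140 with it. The cholesterol median by PRDX1 with RANKL was -0.0524 under upper quartile scaling. The cause of these shifts was not tested.

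Leaving out each library in turn, the cholesterol median ranged from -0.786 to -0.681 by PRDX1 without RANKL, from -0.102 to -0.0026 by PRDX1 with RANKL and from -0.835 to -0.769 by RANKL without PRDX1. The fatty acid median ranged from -0.175 to -0.0989 by PRDX1 with RANKL, from -0.684 to -0.587 by RANKL without PRDX1, from -0.134 to -0.0648 by RANKL with PRDX1 and from 0.631 to 0.833 for the interaction. The number of the 31 genes lowered ranged from 17 to 24 by PRDX1 without RANKL and from 20 to 22 by RANKL without PRDX1. By PRDX1 without RANKL, Hsd17b7, Acaca and Acss2 also passed with a pseudocount of 0.1, in voom (22 of the 31 lowered in either), without MCSF replicate 1 and without PRDX1 replicate 2, and Mvk and Srebf1 without MCSF replicate 1. By RANKL without PRDX1, Pmvk also passed without MCSF replicate 1, Srebf2 without RANKL replicate 2 and Elovl6 without RANKL replicate 1. Of the calls, 17 of 19, 1 of 1, 17 of 21, 3 of 3 and 17 of 18 held in all 15 alternatives, in the order of the comparisons above.

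By the numbers in the sample titles, replicates did not pair the libraries: deviations from the group means of libraries with the same number correlated at 0.0085 to 0.0965 over genes. The table's header gives some MCSF and PRDX1 libraries other numbers than their titles do, so that the title numbers may not be those of the cultures. With a replicate block the counts for the 31 genes stayed at 19, 1, 21, 3 and 18, and those over all genes were 676, 1192, 2551, 994 and 1042.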
